A study of Mus musculus with 3 samples.

Results

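The matrix proteases and their inhibitors cut, and spare, the proteins around a cell. They were taken here as the mouse genes with a numbered Mmp, Adam or Adamts symbol or a Timp symbol from 1 to 4, measured by a probe set annotated with 1 gene. This gave 61 genes out of 17097, namely 18 matrix metalloproteinases (Mmp), 26 Adam genes, 14 Adamts genes and 3 tissue inhibitors of metalloproteinases (Timp). Each gene was represented by its probe set with the highest mean. Timp4, Mmp15, Mmp25, Adamts2 and Adamts14 were not analysed here.

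RNA was measured on 3 Affymetrix arrays of 1 group, without a second condition. The cells came from female mouse embryos at embryonic day 14 that carry a fluorescent reporter at the Lgr5 locus (Lgr5-IRES-GFP), and each array held the female embryos of 1 litter as a pool. Epidermis and mammary gland were digested together with collagenase and hyaluronidase, and cells with high CD49f, the integrin chain encoded by Itga6, and high reporter signal were sorted. Per the labels, 813 or 2000 cells gave the RNA of a sample, whose cDNA was amplified for 25 cycles, and the number of cells of each litter is not stated.

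Matrix metalloproteinases are zinc enzymes that are made as inactive precursors and degrade collagens, laminins and other matrix proteins. Some are secreted and some sit in the cell membrane, and the Timp proteins block them. Adam proteins span the membrane and release the outer parts of other membrane proteins, among them Notch receptors and ligands of the epidermal growth factor receptor, although several members lack a working protease site. Adamts proteins are secreted, bind the matrix, and cut proteoglycans such as versican or trim procollagens. In the mammary gland the balance of metalloproteinases and Timp proteins is known for its part in branching and in remodelling after lactation.

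A gene was called above background where its log2 value exceeded the threshold of the array, the 95th percentile of 74 olfactory and vomeronasal receptor genes, with a Benjamini-Hochberg adjusted p under 0.05 by limma over all genes. The thresholds were 6.14, 6.17 and 5.99 on replicates 1, 2 and 3. Replicates 1 and 2 lay close together (Pearson r = 0.994 over 45141 probe sets) and replicate 3 stood apart from them (0.942 and 0.944), with a median log2 value of 6.52 against 6.25 on each of the others. Of the markers of the labelled cells, all 6 basal genes (such as Krt5, 12.15 ± 0.16, SD, n = 3), all 6 luminal and general epithelial genes and all 6 mammary bud genes including Lgr5 were above background. Of 13 dermal mesenchyme markers, 12 were above background as well (Col1a1, 12.99 ± 0.15; not Pdgfra), beside 2 of 9 endothelial, 3 of 9 leukocyte, 5 of 8 suprabasal, 2 of 5 erythroid and 2 of 7 melanocyte and Schwann cell markers. Under higher thresholds, set by genes restricted to unrelated tissues or by the brightest antigenomic control, basal markers stayed at 6 and mesenchymal ones at 12, and the luminal and mammary bud lists had 4 of 6 each. Both left 0 of 9 endothelial, 1 of 9 leukocyte, 1 of 8 suprabasal and 1 of 7 melanocyte and Schwann cell markers. Of the 5 erythroid markers, 1 was called under the former and 0 under the latter. Values of pooled cells cannot tell fewer cells of a type from less RNA per cell.

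Of the 61 members, 32 (52.5%) were above background, close to the share of all genes, 55.1%. Their median height above the threshold was 0.91 on the log2 scale, against 0.78 over all genes tested. The share differed between roles, which were assigned with results known. All 3 Timp genes, all 4 membrane-type metalloproteinases and 11 of 12 Adam genes outside the group named for testis, epididymis and immune cells were above background, against 5 of 14 secreted metalloproteinases and 1 of 14 Adam genes of that group. At this threshold the Adamts genes lay near the share of all genes (8 of 14, 57.1%), with 4 of 7 proteoglycanases and 4 of 6 others. The 1 procollagen N-proteinase was not called. The higher of a gene's probe sets was used, which favours a call. All 32 exceeded the threshold on each of the 3 arrays, and of the 29 others 23 were under it on every array.

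**Figure D1:**
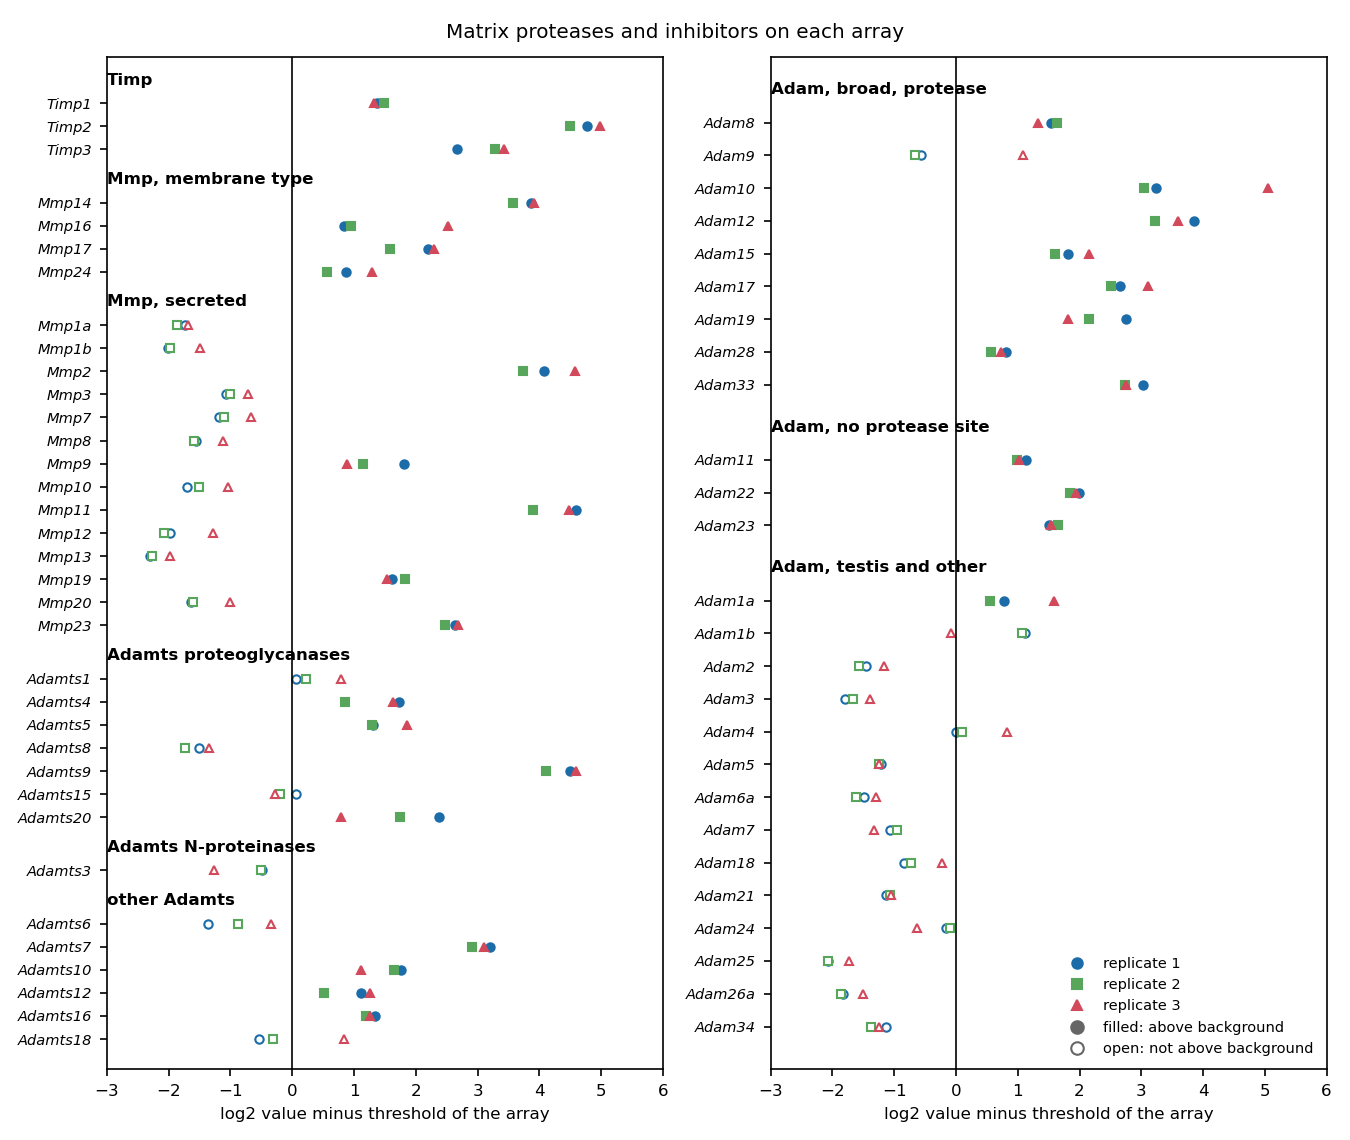
Each row is 1 gene, and its points are the log2 values on the 3 arrays minus the threshold of that array (vertical line at 0), filled where the gene was above background and open where it was not. Timp2, Mmp2, Mmp11, Mmp14, Adam10, Adam12 and Adamts9 lie more than 3 above the threshold on every array, and the secreted metalloproteinases fall into a set on either side of the line.

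A stricter background split the 32 again. With the 95th percentile of 37 genes restricted to unrelated tissues as threshold, 16 of 61 members (26.2%) were called, against 31.8% of all genes. The brightest antigenomic control as threshold also gave 16, against 31.6% of all genes. These 16 were called in each of the 12 alternative settings tried: Timp2, Timp3, Mmp2, Mmp11, Mmp14, Mmp17, Mmp23, Adam10, Adam12, Adam15, Adam17, Adam19, Adam22, Adam33, Adamts7 and Adamts9. The other 16 lost the call under at least 1 setting, and are named with that limit below. By family, both stricter backgrounds called 2 of 14 Adamts genes (14.3%), beside 5 of 18 Mmp, 7 of 26 Adam and 2 of 3 Timp genes.

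**Figure D2:**
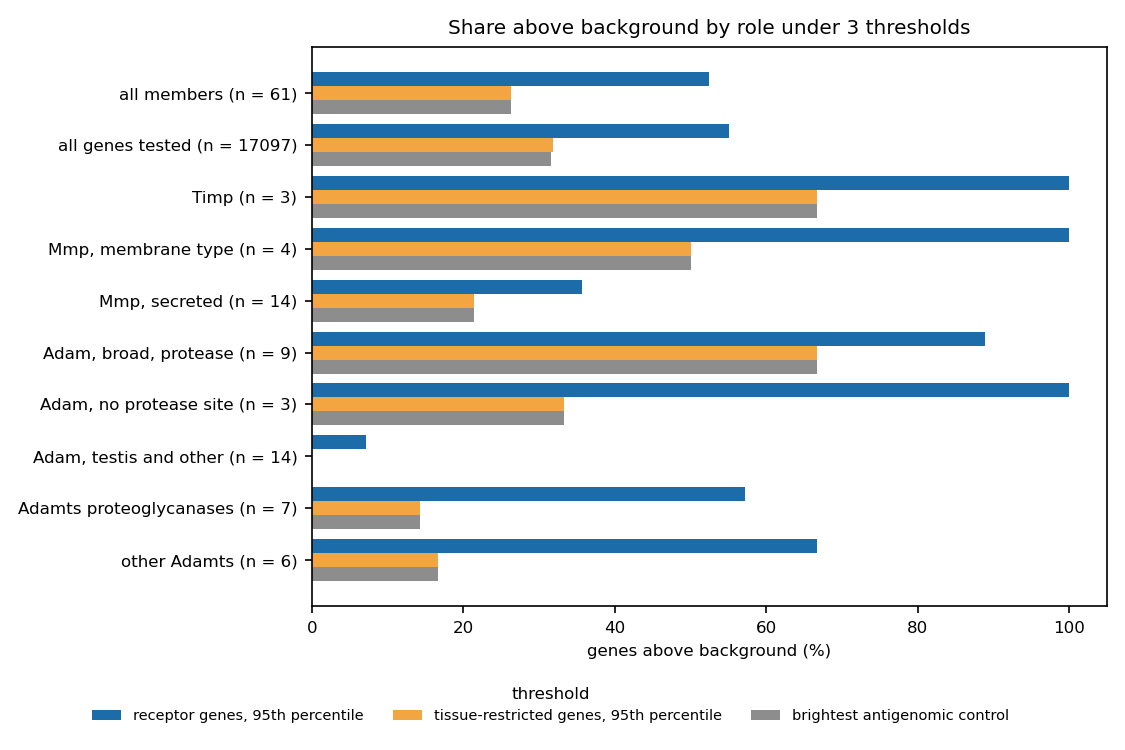
Bars give the percentage of genes above background in all members, in all genes tested and in each role with more than 1 member, under the threshold used here (blue) and under 2 stricter ones (orange and grey). All members reach 52.5% against 55.1% of all genes under the first, and the Timp, membrane-type and broadly expressed Adam groups keep 50% to 66.7% of their members under the stricter ones.

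The inhibitors were all detected. Timp2, which both blocks metalloproteinases and helps Mmp14 to activate the Mmp2 precursor, read 10.91, 10.67 and 10.97 (log2, replicates 1, 2 and 3; 4.75 ± 0.15 above the threshold, SE as in all such heights; limma adjusted p = 1.79e-05). Its 5 probe sets all lay at least 3.83 above the threshold. Timp3, the inhibitor that binds the matrix and also blocks Adam17 and several Adamts proteases, had 8.81, 9.45 and 9.41 (3.12 ± 0.21 above, adjusted p = 9.87e-05). Replicate 1 was the lowest of the arrays in each of the 4 Timp3 probe sets, by 0.59 to 1.40 below the highest. Timp1, a secreted inhibitor of wide range, had 7.51, 7.65 and 7.32 (1.40 ± 0.14 above, adjusted p = 0.000385), with all arrays above the threshold but no call against tissue-restricted genes (0.21 above, adjusted p = 0.36).

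Mmp14, Mmp2 and Timp2 form a known activation complex at the cell surface, and all 3 genes were detected. Mmp14, the membrane-type enzyme that cleaves fibrillar collagen and activates Mmp2, had log2 values of 10.00, 9.74 and 9.90 (3.78 ± 0.15 above the threshold, adjusted p = 2.93e-05), and its second probe set lay 3.21 above. Mmp2, a gelatinase that cuts denatured collagen and basement membrane collagen, had 10.21, 9.91 and 10.56 (4.12 ± 0.20 above, adjusted p = 4.49e-05). In both genes the arrays lay within 0.65 of each other and far above the threshold. The other measured membrane-type genes stood nearer to it. Mmp17, an enzyme anchored by a lipid tail, had 8.34, 7.76 and 8.28 (2.02 ± 0.21 above, adjusted p = 0.000374). Mmp16, a relative of Mmp14, had 6.98, 7.13 and 8.51 (1.44 ± 0.38 above, adjusted p = 0.0126), with replicate 3 high. Mmp24, known mainly from the nervous system, had 7.01, 6.73 and 7.28 (0.91 ± 0.19 above, adjusted p = 0.00561), and its 3 probe sets disagreed, at 0.91, 0.02 and -0.56. Mmp16 and Mmp24 were not called against tissue-restricted genes.

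Among secreted and released enzymes, Mmp11, Mmp2 and Mmp23 were clear of every threshold. Mmp11, known as stromelysin 3 from fibroblasts next to remodelling epithelium, had log2 values of 10.74, 10.07 and 10.47 (4.33 ± 0.19 above the threshold, adjusted p = 3.35e-05). Mmp23, made as a membrane protein and released by cleavage, had 8.77, 8.65 and 8.68 (2.60 ± 0.16 above, adjusted p = 7.19e-05), the narrowest range among the members above background. Mmp19 had 7.75, 8.0 and 7.52 (1.66 ± 0.16 above, adjusted p = 0.000286), and its second probe set lay under the threshold (-1.55). Mmp9, the second gelatinase, known from leukocytes and invading cells, had 7.95, 7.31 and 6.87 (1.28 ± 0.22 above, adjusted p = 0.0029), with its second probe set at -0.21. Neither Mmp19 nor Mmp9 was called against tissue-restricted genes. The 9 leukocyte markers averaged 0.11, 0.12 and 0.01 above the threshold on replicates 1, 2 and 3, and 3 were called. Among those not above background were Ptprc (4.03 ± 0.20) and Itgam (5.70 ± 1.16), the latter with 6.25, 6.47 and 4.36. The 3 called were Cd68 (8.83 ± 0.26), Csf1r (6.47 ± 0.14) and Fcer1g (7.29 ± 0.45, SD, n = 3). Of these, Cd68 alone was called under both stricter backgrounds. The part of leukocyte RNA in the value of Mmp9, or of Adam8 among the Adam genes, was not tested.

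The remaining 9 secreted metalloproteinases were under the threshold on every array and were called in no setting. They are Mmp1a and Mmp1b, the interstitial collagenases of the mouse, Mmp8 and Mmp13, the other collagenases, Mmp3 and Mmp10, the stromelysins, Mmp7 (matrilysin), Mmp12 (macrophage elastase) and Mmp20 (enamelysin of teeth). Mean log2 values went from 3.92 ± 0.09 for Mmp13 to 5.17 ± 0.10 for Mmp3 (SD, n = 3). These 9 are also neighbours in the genome: in the RefSeq annotation 10 Mmp genes follow each other on chromosome 9 with no other protein-coding gene between them, and the 9 measured here are those without a call. The 9 metalloproteinase genes above background all lie elsewhere.

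Promoter windows were on hand for these 9 genes and for 4 of the 9 metalloproteinases above background (Mmp11, Mmp14, Mmp23 and Mmp24). The 120 bases upstream of the RefSeq start (GRCm38.p6) of 3 members above background, 2 metalloproteinases and the inhibitor Timp2, and of 3 from the chromosome 9 run, are printed, chosen with their values known to show the contrast. Capitals mark GC boxes (GGGCGG), AP-1 motifs (TGACTCA) and TATA motifs (TATAAA) on either strand.
Mmp14: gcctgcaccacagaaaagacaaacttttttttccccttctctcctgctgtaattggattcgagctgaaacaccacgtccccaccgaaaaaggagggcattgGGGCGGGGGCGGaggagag
Mmp11: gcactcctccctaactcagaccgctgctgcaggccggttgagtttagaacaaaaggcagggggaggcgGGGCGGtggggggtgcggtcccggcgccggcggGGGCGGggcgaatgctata
Timp2: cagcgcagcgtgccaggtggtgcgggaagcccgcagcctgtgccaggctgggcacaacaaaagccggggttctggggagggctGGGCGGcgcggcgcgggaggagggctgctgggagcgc
Mmp13: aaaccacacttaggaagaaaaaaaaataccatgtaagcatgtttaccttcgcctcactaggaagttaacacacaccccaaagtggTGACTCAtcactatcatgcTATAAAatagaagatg
Mmp3: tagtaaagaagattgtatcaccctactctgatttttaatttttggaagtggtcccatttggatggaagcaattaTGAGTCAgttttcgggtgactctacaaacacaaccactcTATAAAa
Mmp10: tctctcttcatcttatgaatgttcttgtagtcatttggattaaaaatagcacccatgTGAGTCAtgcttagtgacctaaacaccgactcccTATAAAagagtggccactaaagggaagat

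The windows lie at chr14:54431478-54431597 (plus strand), chr10:75932503-75932622 (minus), chr11:118355412-118355531 (minus), chr9:7272394-7272513 (plus), chr9:7445702-7445821 (plus) and chr9:7502222-7502341 (plus), in the order of the sequences. In Mmp13, Mmp3 and Mmp10 an AP-1 motif starts 35 to 63 bases before the RefSeq start and a TATA motif lies between it and the start. AP-1 is the Fos and Jun factor that is known to drive collagenase and stromelysin genes in response to growth factors and inflammation. Mmp14, Mmp11 and Timp2 hold GC boxes, the motif bound by Sp1, and neither of the other motifs in these windows.

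RefSeq promoter windows of 300 bases, which run 50 bases past the start, were on hand for 35 members, 18 above background and 17 not. The median G and C content was 66.7% in the 18, against 43.0% in the 17. Over the windows of all genes tested these medians were 61.3% above background, against 54.3% not above it. CpG dinucleotides numbered 21.5 per window in the 18 (range 4 to 44) and 1.0 in the 17 (range 0 to 41), beside medians of 21.0 in all genes above background and 8.0 in all others. The members above background thus had windows like those of other such genes. None of the 18 held a TATA motif and 10 of the 17 did, beside 10.1% of the 13514 windows of all tested genes. That share was 6.83% in all genes above background and 14.3% in the others. AP-1 motifs stood in 0 of the 18 and 7 of the 17, beside 4.41% of all windows (3.15% above background, 6.03% not). The chromosome 9 run made up most of these, with a TATA motif in 8 and an AP-1 motif in 6 of its 9 windows. Its neighbouring genes share ancestry. Of the 8 members not above background outside the run, 2 held a TATA motif and 1 an AP-1 motif. GC boxes were in 12 of the 18 (66.7%), close to the 65.8% of all genes above background, and in 3 of the 17 (17.6%), beside 39.1% of all genes not above it. Adamts1, Adamts3 and Adamts18 were the members not above background with windows rich in G and C (64.7%, 77.3% and 66.0%), and Adam1a had the lowest share among the members above it (39.7%). A match in these letters is not a bound site.

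**Figure D3:**
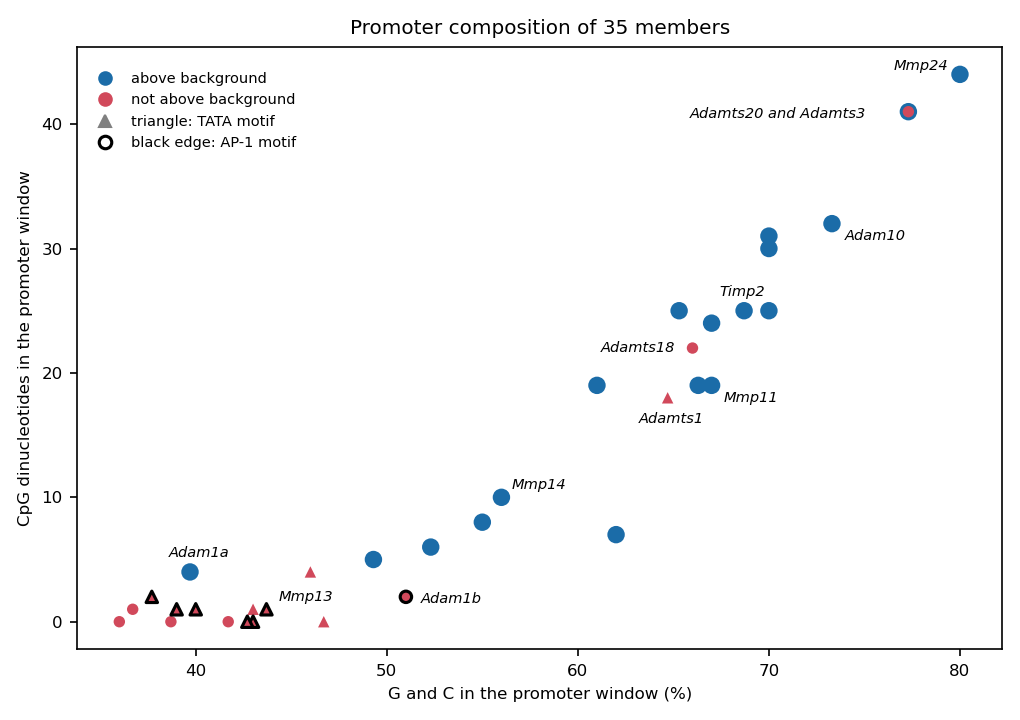
Each point is the promoter window of 1 of 35 members, by its G and C percentage (x axis) and its number of CpG dinucleotides (y axis), large and blue above background, small and red not above it. Triangles hold a TATA motif and black edges an AP-1 motif; both kinds lie at the lower left, Adamts1 excepted, and the 18 members above background hold neither.

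Of the 9 Adam genes grouped as proteases of wide expression, 8 were above background. Adam8 was counted here although it is known mainly from leukocytes and inflammation. Adam28 could also have been placed with the testis, epididymis and immune genes. The counts of both groups depend on such choices. Adam10, the main enzyme of Notch receptor shedding, had log2 values of 9.38, 9.22 and 11.04 (3.78 ± 0.43 above the threshold, adjusted p = 0.000576). Adam17, which releases tumour necrosis factor and ligands of the epidermal growth factor receptor, had 8.79, 8.68 and 9.09 (2.75 ± 0.19 above, adjusted p = 0.000106). All 3 probe sets of Adam10 and all 3 of Adam17 were above the threshold by at least 1.72. Adam12, which marks embryonic mesenchyme and cleaves growth factor binding proteins, had 10.00, 9.40 and 9.58 (3.56 ± 0.18 above, adjusted p = 5.01e-05). Adam19, a sheddase of neuregulins, had 8.89, 8.33 and 7.81 (2.24 ± 0.23 above, adjusted p = 0.000387). Adam33, a gene of mesenchyme and smooth muscle, had 9.17, 8.91 and 8.74 (2.84 ± 0.16 above, adjusted p = 6.25e-05).

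The other 4 genes of this group were nearer to the threshold. Adam15 had 7.95, 7.77 and 8.15 (1.86 ± 0.18 above, adjusted p = 0.000323), and 1 of its 4 probe sets lay under the threshold. Adam8 had 7.68, 7.80 and 7.31 (1.49 ± 0.15 above, adjusted p = 0.000385). Adam28 had 6.96, 6.74 and 6.72 (0.71 ± 0.13 above, adjusted p = 0.00392), its second probe set was at -1.81, and without replicate 1 the call was lost (0.65 above). Adam9, a sheddase of wide expression measured here by 1 probe set, was the gene of the group that was not above background. Replicate 3 had 7.07, above its threshold, and replicates 1 and 2 had 5.57 and 5.51, below theirs (adjusted p = 0.853). Adam8 and Adam28 were not called against tissue-restricted genes.

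The 3 genes grouped here as brain Adam genes without a working protease site were detected too. This group does not take in every member that lacks such a site. Adam22, a receptor of secreted Lgi proteins in the brain, had log2 values of 8.13, 8.02 and 7.93 (1.92 ± 0.15 above the threshold, adjusted p = 0.000155). Adam23, its relative, had 7.65, 7.83 and 7.53 (1.57 ± 0.15 above, adjusted p = 0.000278). Adam11 had 7.28, 7.16 and 7.01 (1.05 ± 0.14 above, adjusted p = 0.000913), and its second probe set lay at 0.07. In the probe sets used, the arrays of each gene lay within 0.30 of each other. Adam22 alone of the 3 was called against tissue-restricted genes.

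The group named for testis, epididymis and immune cells took in every Adam gene not placed in another group, and was nearly empty. Adam8 and Adam28, both above background, were not counted in it, so its count does not speak for Adam genes of immune cells. Adam1a, a fertilin gene of testis, had log2 values of 6.92, 6.72 and 7.58 (0.98 ± 0.24 above the threshold, adjusted p = 0.0105). It lost the call with the 99th percentile of the receptor genes (0.61 above) and with both stricter backgrounds. Its second probe set had 6.98, 6.95 and 6.16, lowest on replicate 3, where the one used was highest. Adam1b, the neighbour of Adam1a, had 7.26, 7.24 and 5.91, above the threshold on replicates 1 and 2 and below it on replicate 3 (adjusted p = 0.0511). Without replicate 3 Adam1b was called (1.09 above), but its other probe sets lay at 0.04 and -1.27. Adam4 had 6.15, 6.27 and 6.81, above the threshold on each array without a call (adjusted p = 0.161). The other 11, which include Adam2 and Adam3 of the sperm surface and Adam7 of the epididymis, were under the threshold on every array, with means between 4.14 and 5.81. Of these, Adam18, Adam3 and Adam5 stand in 1 run on chromosome 8 that ends with Adam9.

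Of 7 proteoglycan-cutting Adamts genes, 4 were above background. Adamts9, which cuts versican in embryonic skin and palate, had log2 values of 10.64, 10.28 and 10.58 (4.40 ± 0.16 above the threshold, adjusted p = 2.35e-05). Its other 2 probe sets lay at 0.86 and -0.12, but the arrays of the one used were all far above the threshold. Adamts20, its nearest relative and the gene of the belted coat pattern in mice, had 8.52, 7.91 and 6.78 (1.63 ± 0.33 above, adjusted p = 0.00483), highest on replicate 1 and lowest on replicate 3. Adamts5, an aggrecanase, had 7.45, 7.47 and 7.84 (1.49 ± 0.18 above, adjusted p = 0.000768), and its 4 probe sets ranged from 1.49 to -1.98. Adamts4, also an aggrecanase, had 7.87, 7.02 and 7.62 (1.40 ± 0.23 above, adjusted p = 0.00214), with its second probe set at -0.07. Only Adamts9 of the 4 was called against tissue-restricted genes. Adamts1, Adamts15 and Adamts8 were not above background: Adamts1 had 6.21, 6.40 and 6.78 (adjusted p = 0.094), Adamts15 had 6.21, 5.97 and 5.71, and Adamts8 averaged 4.57 ± 0.12 (SD, n = 3).

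Of the other Adamts genes, Adamts7, known to cut cartilage oligomeric matrix protein, was called in every setting, with log2 values of 9.34, 9.09 and 9.09 (3.07 ± 0.16 above the threshold, adjusted p = 4.91e-05). Adamts10, a protein of fibrillin microfibrils, had 7.90, 7.82 and 7.11 (1.51 ± 0.19 above, adjusted p = 0.00082), and both its probe sets were above the threshold. Adamts16 had 7.49, 7.36 and 7.24 (1.26 ± 0.14 above, adjusted p = 0.000524) and Adamts12 had 7.26, 6.68 and 7.25 (0.96 ± 0.20 above, adjusted p = 0.00523). For each of these last 2 genes the second probe set was under the threshold (-0.65 and -1.75), and none of the 3 was called against tissue-restricted genes. Adamts3, the measured procollagen N-proteinase, had 5.66, 5.66 and 4.72 and Adamts6 had 4.78, 5.29 and 5.64, so both were under the threshold on every array. Adamts18 had 5.60, 5.86 and 6.82, above the threshold on replicate 3 only (adjusted p = 0.797).

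Several of the detected members, among them Mmp2, Mmp11, Adam12, Adam33 and Timp2, are known from mesenchyme. The 13 dermal mesenchyme markers averaged 4.03, 3.91 and 4.06 above the threshold on replicates 1, 2 and 3, and the 6 basal epithelial markers 4.25, 4.50 and 4.81. Dcn (11.43 ± 0.07), Lum (10.10 ± 0.19), Prrx1 (10.18 ± 0.21) and Twist2 (10.80 ± 0.27, SD, n = 3) were among the former, and Pdgfra (4.89 ± 0.55) was the marker without a call. The part of mesenchymal RNA in the members' values was not tested.

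The spread between litters was small in most members. The median SD over the arrays was 0.25 in the 32 members above background, against 0.26 in all 9426 such genes, and the range stayed under 0.5 in 17 of the 32. Replicates 1 and 2 differed by a median of 0.24 in the members, against 0.12 in all called genes, while replicate 3 differed from their mean by 0.28 in the members, against 0.40. After subtraction of the thresholds, replicate 1 minus the mean of the others had a median of 0.10 over the members, against -0.17 over all called genes, and replicate 3 minus the others 0.16, against 0.41. Centring on the array medians gave 0.30 against 0.03 and -0.28 against -0.03, so the sign for replicate 3 depended on the scaling, and the members stood below the other genes on that array in both. Each litter was measured once, so these differences carry no test and cannot be told apart from batch or number of cells.

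Among the 32 members above background, the largest ranges over the arrays were those of Adam10 (1.82), Adamts20 (1.74), Mmp16 (1.53), Adam19 (1.08) and Mmp9 (1.08). For Adam10 and Mmp16 the wide range was seen in the probe set used, and their other probe sets ranged by 0.17 and 0.38, and by 0.26 and 0.29. The second probe set of Adam19 had 8.72, 7.68 and 8.40, also highest on replicate 1 but lowest on replicate 2. That of Mmp9 had the same order of arrays as the first. Adamts20 had 1 probe set, so its order was seen once. Among members without a call, all 3 probe sets of Adamts18 were highest on replicate 3, at 6.82, 7.70 and 6.96, against 5.18 to 5.86 on the others.

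**Figure D4:**
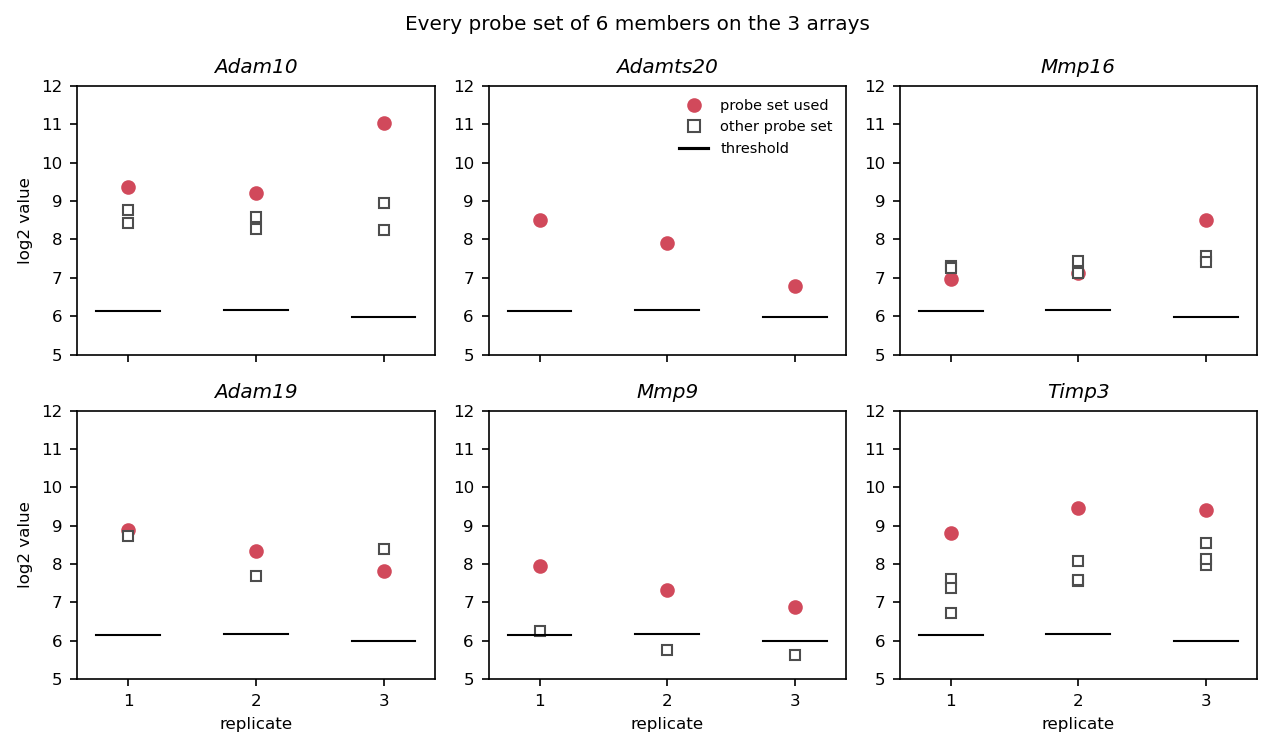
Every probe set of the 5 members above background with the largest range, and of Timp3, is plotted as its log2 value (y axis) on replicates 1 to 3 (x axis), with the probe set used in red, others as open squares and the threshold of each array as a black bar. The high value of replicate 3 in Adam10 and Mmp16 is seen in 1 of 3 probe sets, and all 4 of Timp3 are lowest on replicate 1.

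Of 86 genes in lists of related proteases, inhibitors, regulators and substrates, 52 exceeded the background (60.5%, against 55.1% of all genes). Their median was 1.14 above the threshold, against 0.78 over all genes. Activators of precursor enzymes were detected in 5 of 6 proprotein convertases, namely Furin, which activates Mmp14 and Adam precursors (8.62 ± 0.26), Pcsk4 (7.04 ± 0.25), Pcsk5 (6.68 ± 0.19), Pcsk6 (7.70 ± 0.14) and Pcsk7 (7.88 ± 0.53, SD, n = 3), and not Pcsk1. Under both stricter backgrounds 1 of the 6, Furin, was called. The plasminogen system, the other known activating cascade, had 2 of 6: Plat, the tissue-type activator (7.64 ± 0.07), and Plaur, the urokinase receptor (6.81 ± 0.22). Both lost the call under either stricter background (0 of 6), and 1 of 6 was called under the 99th percentile of the receptor genes or without replicate 2. Urokinase itself, Plau, had 5.68, 6.03 and 6.31, above the threshold on replicate 3 only, and Plg stood at 5.24 ± 0.05. Of 8 membrane serine proteases and Kunitz inhibitors, St14, which encodes matriptase (8.49 ± 0.33), and its inhibitors Spint1 (8.82 ± 0.25) and Spint2 (10.15 ± 0.57) were above background, and Prss8 (6.22 ± 0.48) and Hpn (6.43 ± 0.55) were not.

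Membrane partners were detected in 6 of 10 cases. Bsg, the inducer of metalloproteinases known as basigin, stood at 9.53 ± 0.10, Rhbdf1 and Rhbdf2, the carriers of Adam17, at 10.24 ± 0.22 and 7.83 ± 0.17, and Tspan5 and Tspan14, the tetraspanin partners of Adam10, at 10.56 ± 0.17 and 7.39 ± 0.86 (SD, n = 3). Reck, a membrane-anchored inhibitor of metalloproteinases, had 6.73, 6.02 and 6.83 and was not above background, nor was Tspan10. Membrane proteins that Adam10 or Adam17 shed were above background in 9 of 14 cases, among them Notch1 (11.50 ± 0.11), Notch2 (10.16 ± 0.26), Jag1 (9.45 ± 0.14), Hbegf (7.52 ± 0.40) and Tgfa (7.12 ± 0.17), while Ereg (4.10 ± 0.24) and Btc (5.50 ± 0.32) were not. Sheddases, their carriers and several of their substrates were therefore measured in the same pools, which does not show them in the same cell. Under the antigenomic control 3 of the 10 membrane partners and 6 of the 14 shed proteins were called. Of the genes named, Tspan14, Hbegf and Tgfa lost the call under both stricter backgrounds, and Rhbdf2 under the antigenomic control only. Tspan14 had 6.84, 6.94 and 8.38, highest on replicate 3.

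Matrix substrates of Adamts proteases were above background in 8 of 11 cases. Vcan, the versican that Adamts9 and Adamts20 cut, stood at 10.85 ± 0.11 and the procollagen genes Col1a1 and Col1a2 at 12.99 ± 0.15 and 7.99 ± 0.09 (SD, n = 3). Acan, the aggrecan of cartilage, was just above the threshold (6.52 ± 0.09), and Bcan and Ncan were not above background. Col2a1, the procollagen of cartilage, had 8.98, 8.69 and 11.01, highest on replicate 3. Bmp1, the procollagen C-proteinase, stood at 10.65 ± 0.12 and was with Mep1a (6.87 ± 0.11) the astacin protease above background (2 of 6), whereas Tll1 and Tll2 were not. Adamts-like proteins reached 4 of 7, with Adamtsl1 (9.07 ± 0.41), Adamtsl4 (8.78 ± 0.28), Papln (6.92 ± 0.18) and Thsd4 (8.19 ± 0.13), and without Adamtsl2 and Adamtsl3. Cathepsins and cystatins reached 9 of 13, led in list order by Ctsa (9.53 ± 0.12), Ctsb (10.64 ± 0.31), Ctsd (9.41 ± 0.33), Ctsh (6.98 ± 0.27) and Ctsk (8.61 ± 0.64), and without Ctsc and Ctso. Of 5 heparanase and hyaluronidase genes 4 were above background, Hyal1 (8.05 ± 0.40), Hyal2 (7.81 ± 0.12), Hyal3 (7.37 ± 0.24) and Cemip (6.72 ± 0.16), and Spam1 of sperm was not. Under both stricter backgrounds 2 of these 5 and 1 of the 6 astacin genes were called.

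**Figure D5:**
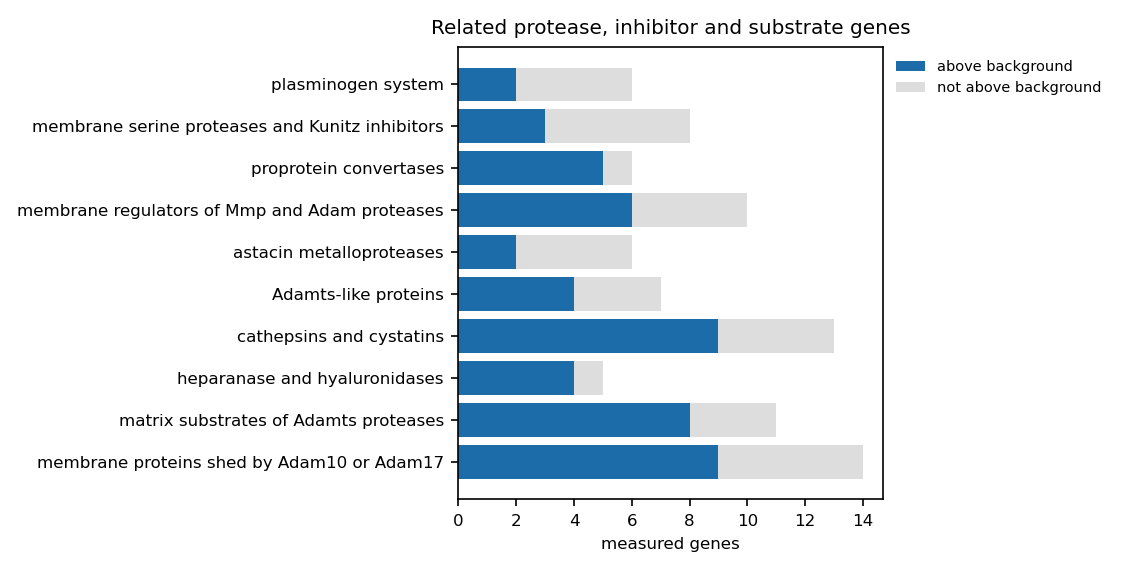
Bars count the measured genes of 10 related lists that were above background (blue) and not (grey). Proprotein convertases reach 5 of 6 and the plasminogen system 2 of 6.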

How the data were processed

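Per the submitters' processing notes, the authors used RMA and the affy package; the deposited table holds 1 log2 value for each probe set and array. Settings are not given in the sources used here. GEO's platform annotation named the genes: 28898 of 45141 probe sets had 1 symbol, and those with several (551) or none were not used. The 61 members had 107 probe sets. Each array's threshold was taken off, and limma 3.58.1 (R 4.3.3) fitted an intercept per gene, with moderated variances that follow the mean level, a one-sided p for a mean over 0 and Benjamini-Hochberg adjustment over 17097 genes. These p-values measure the spread between 3 litters, given the thresholds as fixed. The number of arrays limits the precision.

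Members, roles and gene lists were chosen with earlier results of these data known. Every member above background was named, with all metalloproteinases, inhibitors, proteoglycanases and N-proteinases, and members above the threshold on any array. Each related list gave up to 5 genes above background and 2 others, in list order. Marker examples, and the testis genes named without a value, were picked with values known. Promoter windows are RefSeq's (GRCm38.p6), the first listed per gene. Alternatives changed the threshold, the probe set rule, the normalization, the variance trend, a filter on dim genes and the arrays used. The fit was tested on simulated data. Tables and plots were made in Python 3.11.15.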

Additional observations from a re-analysis of the deposited data

How the results depend on the processing

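The count of members above background, 32 of 61, was 16 under tissue-restricted genes, 16 under the brightest antigenomic control, and 29 to 35 in the other alternatives, with 31 to 33 when 1 replicate was left out. Over the whole array the number of genes above background, 9426, became 5436 and 5399 under these same 2 thresholds, and 9056 to 10007 with a replicate left out. The related genes went from 52 to 34 with the antigenomic control, and to 36 with tissue-restricted genes. Under tissue-restricted genes the means of Adam11 (-0.13), Adam1a (-0.21), Adam28 (-0.48), Adamts12 (-0.22) and Mmp24 (-0.28) fell under the threshold. Under the antigenomic control those of Adam11 (-0.23), Adam1a (-0.31), Adam28 (-0.57), Adamts12 (-0.32), Adamts16 (-0.02), Mmp24 (-0.38) and Mmp9 (-0.01) did, and after averaging all probe sets of a gene those of Adam28 (-0.33) and Adamts12 (-0.18). The first 2 settings have higher thresholds, which lowers every gene by construction; in the third, Adam28 and Adamts12 were averaged with a dim second probe set. Adam1b, Adam4 and Adamts1 gained a call in at least 1 setting, and 26 members had none in any. The median of the members for replicate 2 minus the others moved from -0.26 to -0.01, and for replicate 3 minus the others from 0.16 to -0.28, when values were centred on the array medians. No paired analysis was possible because there is 1 group. Weak genes near the threshold, and genes measured by 1 probe set, are the limit of these arrays.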
